A study of Mus musculus with 31 samples.

Results

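The 37 genes described here encode the relay that carries signals from insulin and growth factor receptors into the cell: phosphoinositide 3-kinase (PI3K), AKT, the TSC complex, the mTOR complexes and their substrates, and the adaptors and kinases that lead through RAS to the ERK kinases. They were chosen by gene name from pathway membership, out of 38283 genes listed in each deposited table. The rule itself uses no measured value, but the set was proposed with earlier results of these data known. 36 were found by symbol and Hras by its gene identifier, under the older symbol Hras1. The study compared pancreas from C57BL/6 mice at postnatal day 2, sorted by flow cytometry: YFP-positive cells were taken as mesenchyme and YFP-negative ones as everything else. Total RNA was amplified as a whole transcriptome before sequencing, and the values are FPKM, fragment counts scaled to transcript length and to the mapped total of the library. Controls of the H19DMD model were H19DMD+/+; Nkx3.2+/Cre and its mutants H19DMDfl/+; Nkx3.2+/Cre, the H19DMD being the methylated control region of the imprinted Igf2 and H19 genes. They gave 3 mesenchymal and 3 non-mesenchymal control libraries, and 4 mutant libraries of each fraction. Controls of the Igf2 model were Igf2+/+; Nkx3.2Cre/+ and its mutants Igf2+/fl; Nkx3.2Cre/+. Their non-mesenchymal cells gave 4 libraries from controls and 3 from mutants, and the mesenchymal libraries of that model were not analysed here. All groups, controls included, carry the Nkx3.2-Cre driver, which is active in the pancreatic mesenchyme, so that the floxed allele is meant to be lost in mesenchymal cells only. The labels do not say whether replicates came from separate animals, so p-values measure the spread between these libraries, which may be technical.

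Insulin and IGF receptors recruit docking proteins and the regulatory subunits of PI3K, whose catalytic subunits make the lipid that brings PDK1 and AKT to the membrane. AKT inhibits the TSC complex, which otherwise holds the GTPase Rheb and mTORC1 in check, and it also phosphorylates FOXO transcription factors and GSK3. Through Shc1, Grb2 and the Sos exchange factors the same receptors load RAS with GTP, and RAF, MEK and ERK kinases follow in turn. In the newborn pancreas, where both islet and exocrine cells are still dividing, these routes carry insulin and IGF signals to growth.

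The sorted fractions carried the markers of their labels. The summed level of 10 mesenchymal markers was 6342 to 7438 FPKM in mesenchymal control libraries and 169.8 to 208 FPKM in non-mesenchymal control libraries of the H19DMD model, and the sum of 10 endocrine markers was 54.8 to 228 FPKM against 19937 to 30004 FPKM. The sum of 7 endothelial markers was 112 to 144 FPKM in mesenchymal and 21.6 to 65.3 FPKM in non-mesenchymal controls, and that of 4 mesothelial markers 120.2 to 264 and 1.67 to 7.91 FPKM. In mutants the sums in mesenchymal and non-mesenchymal libraries were 5764 to 7158 and 164 to 296 FPKM for mesenchymal, 35.01 to 127 and 11279 to 20542 FPKM for endocrine, 99.7 to 189 and 38.3 to 65.1 FPKM for endothelial, and 83.4 to 131 and 1.18 to 2.95 FPKM for mesothelial markers, again without overlap. The sum of 5 cell cycle genes was 148 to 167 FPKM in mesenchymal and 174 to 203 FPKM in non-mesenchymal controls, without overlap, and 94.1 to 155 and 147 to 193 FPKM in mutants, with overlap. The part of these cells and of division in the differences between fractions was not tested. Non-mesenchymal libraries were a mixture of acinar, endocrine, ductal, leukocyte and erythroid cells by their markers, and in such bulk samples a smaller number of cells of a type and less RNA per cell cannot be told apart. The deposited values give no read counts, so the depth of each library is unknown. The 3 most abundant features held between 38.2% and 82.5% of all FPKM in a library. As a check of the targeted locus, Igf2 averaged 3849 ± 189 FPKM (SD, n = 3) in mesenchymal controls and 7039.7 ± 799.8 FPKM (SD, n = 4) in mesenchymal H19DMD mutants, and H19 averaged 2446 ± 8.11 and 700.3 ± 123 FPKM. Neither pair of groups overlapped. In non-mesenchymal cells of the Igf2 model, which by design keep the allele, Igf2 averaged 93.5 ± 33.8 FPKM in controls and 78.9 ± 61.9 FPKM in mutants.

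All 37 genes were detected and passed the filter of a mean of at least 1 FPKM in each of the 6 comparisons. FPKM is scaled to transcript length, so levels may be set beside each other within a library. Mapk3, which encodes the kinase ERK1 at the end of the RAS route, had the highest mean level of the set in all 6 groups, from 84.6 FPKM in mesenchymal controls to 207 FPKM in non-mesenchymal H19DMD mutants. Nras, Gsk3b and Rps6kb1 came next in mesenchymal cells of both genotypes; in non-mesenchymal cells the mean of Eif4ebp2 was above that of Rps6kb1 in H19DMD mutants and in both controls and mutants of the Igf2 model. In non-mesenchymal controls of the H19DMD model, Gsk3b at 62.1 ± 0.413 FPKM and Nras at 61.6 ± 14.3 FPKM (SD, n = 3) did not differ beyond their spread. At the low end, Mlst8, a subunit of both mTOR complexes, lay between 1.38 and 3.36 FPKM over the 6 groups, and Foxo4 between 1.86 and 3.86 FPKM. Exons of 9 of the 37 genes (Pik3r2, Tsc2, Rptor, Mlst8, Rps6kb1, Rps6kb2, Foxo1, Gsk3a and Braf) overlap a gene on the opposite strand and those of Pik3r3 a gene on the same strand, Gm49337, so their levels, and family shares that contain them, are uncertain. Values of the Igf2 model come from a table that was normalised separately and are compared only within it.

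The first question was how transcript levels of the relay differ between the mesenchyme and the rest of the pancreas. In controls, 2 of the 37 genes passed an adjusted p of 0.05 in limma, both higher in mesenchymal cells, beside 22.6% of all genes tested (12.4% higher and 10.3% lower). In H19DMD mutants 10 of the 37 passed, 5 higher and 5 lower in mesenchymal cells, beside 28.6% of all genes (13.5% higher and 15.1% lower). Akt2, the AKT isoform best known for insulin-stimulated glucose uptake, was called in both. In mutants the others higher in mesenchymal cells were the PI3K regulatory subunit Pik3r1, the mTORC1 scaffold Rptor, the translation inhibitor Eif4ebp1 and the adaptor Shc1. Lower there were the PI3K catalytic subunit Pik3cb, Eif4ebp2, the adaptor Grb2, the kinase Mapk3 and its phosphatase Dusp6. The share of members called in controls was below that of all genes and in mutants close to it. These counts depended on the settings. In controls they ran from 0 to 2 with 1 library left out and from 1 to 13 under other settings. In mutants they ran from 4 to 8 and from 6 to 13. The median log2 fold change of the 37 genes was 0.03 in controls, beside 0.08 over all genes, and 0.04 in mutants, beside -0.03.

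**Figure D1:**
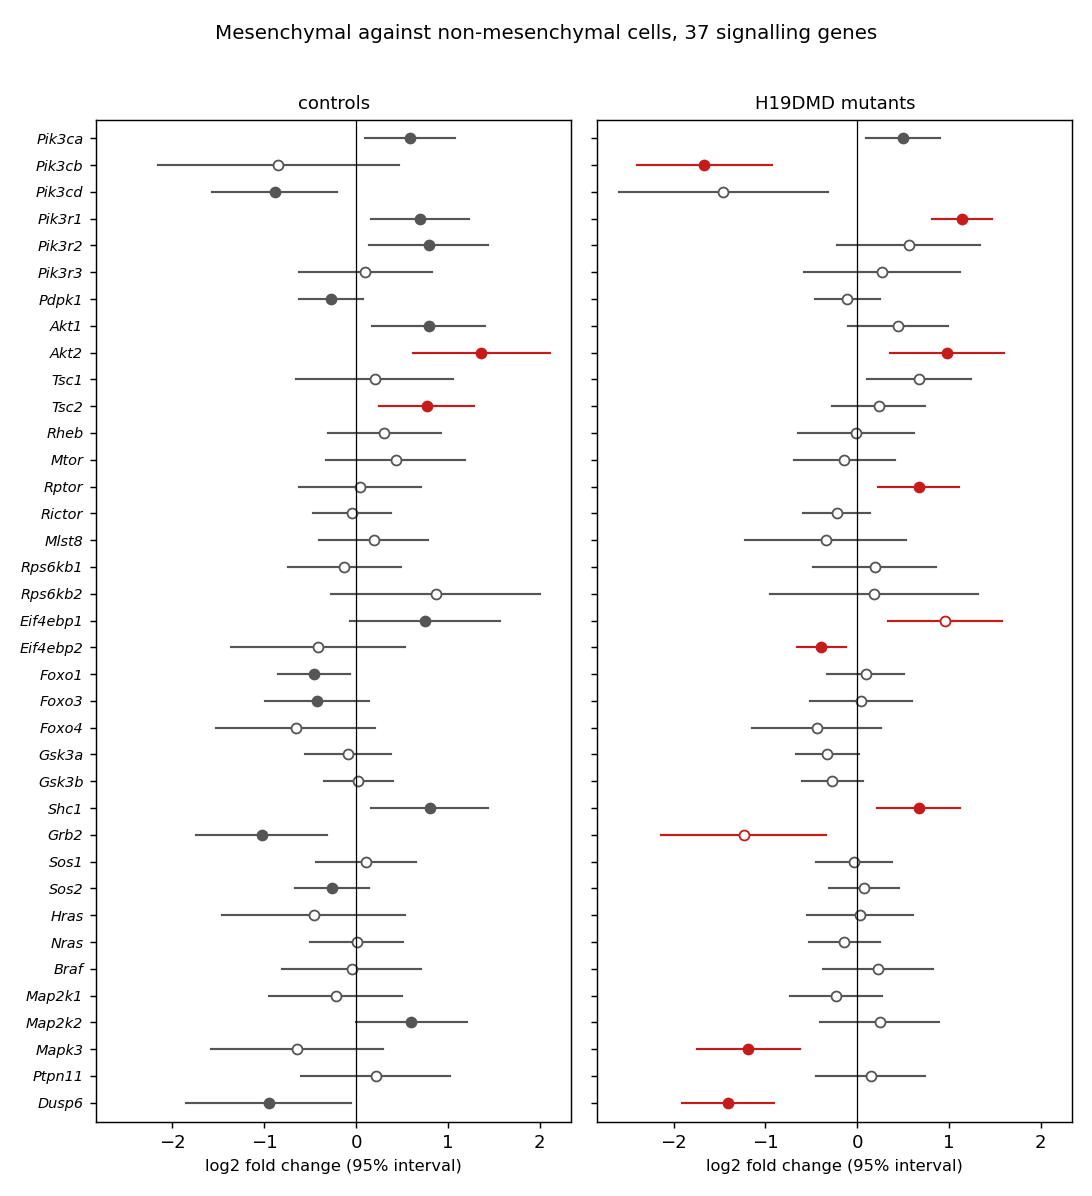
Log2 fold change of each of the 37 genes, mesenchymal against non-mesenchymal cells of the H19DMD model, in controls (left) and mutants (right). Points are limma estimates on log2(FPKM + 1) and lines their 95% intervals; red marks an adjusted p under 0.05 over all genes, and filled points mark groups that do not overlap. Red points number 2 in controls and 10 in mutants, and Akt2 is red in both.

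Akt2 lay at 40.2, 46.4 and 31.2 FPKM in the 3 mesenchymal control libraries and at 9.63, 20.1 and 15.5 FPKM in the 3 non-mesenchymal ones. In mutants it lay at 42.1, 42.8, 51.8 and 60.9 FPKM in the 4 mesenchymal libraries and at 26.4, 30.7, 13.96 and 30.7 FPKM in the 4 non-mesenchymal ones. Every mesenchymal library was above every non-mesenchymal library of either genotype. The log2 fold change was 1.36 (SE 0.30) in controls, with a limma adjusted p of 0.0243 and an exact permutation p of 0.1, the smallest that 3 against 3 allows. In mutants it was 0.98 (SE 0.27), with a limma adjusted p of 0.0276 and an exact permutation p of 0.0286, the smallest that 4 against 4 allows. The call in controls was lost under 3 of 15 alternatives: without mesenchymal library 1 (adjusted p 0.0754 in limma), mesenchymal library 2 (0.079) or non-mesenchymal library 3 (0.064), with log2 fold changes of 1.24 to 1.41. In mutants it was lost under 4 of 17 alternatives, 3 of which left out a library: mesenchymal library 3 (0.063) or 4 (0.0689) or non-mesenchymal library 1 (0.0533), at 0.87 to 1.01. The remaining alternative fitted replicate number as a block (limma adjusted p 0.0528), at 0.98. Akt1, the isoform most tied to cell growth, lay at 27.1, 22.7 and 29.1 FPKM in mesenchymal and 10.9, 14.6 and 19.9 FPKM in non-mesenchymal controls, groups that did not overlap, and its log2 fold change of 0.79 (SE 0.25) missed the threshold in limma (adjusted p 0.0761). In mutants the Akt1 fractions overlapped, at 26.4, 27.3, 15.3 and 23.1 FPKM and 12.5, 15.8, 16 and 21.8 FPKM. Pdpk1, the kinase PDK1 that activates both, stood at 27.1 ± 1.398 FPKM in mesenchymal and 32.99 ± 0.563 FPKM in non-mesenchymal controls (SD, n = 3).

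**Figure D2:**
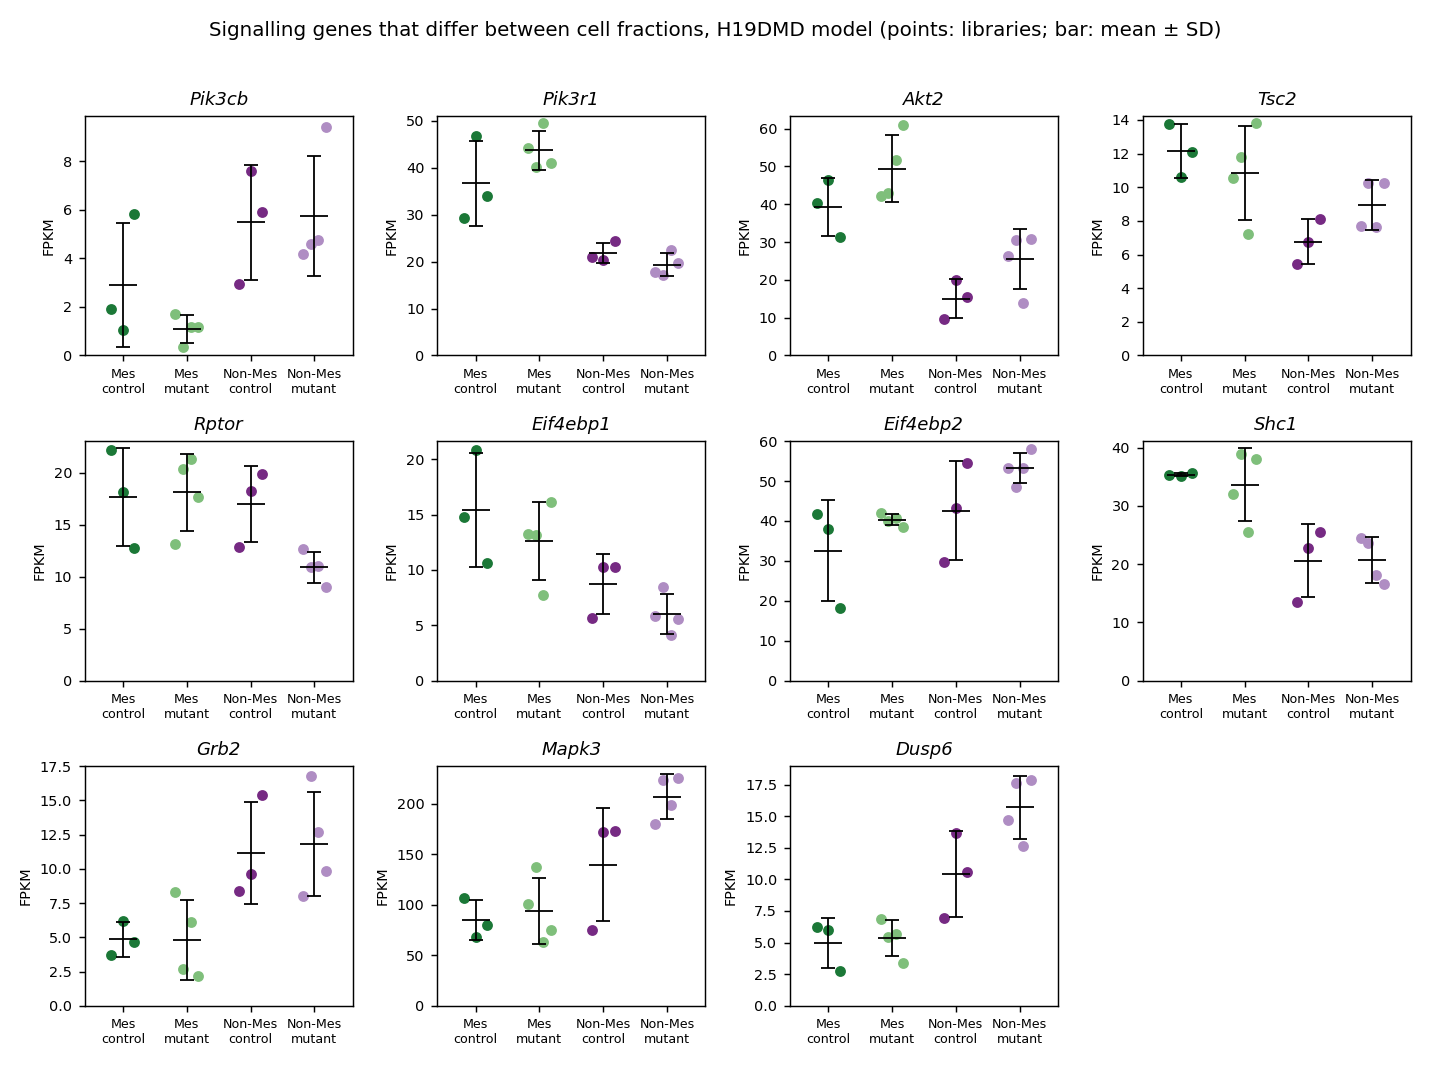
FPKM in each of the 14 libraries of the H19DMD model for the 11 genes that passed the threshold between fractions in controls or mutants; points are libraries, and bars show the mean and SD of each group on an axis from 0. Akt2 and Pik3r1 are higher in every mesenchymal library than in any non-mesenchymal one, and Dusp6 is lower.

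PI3K subunits differed between fractions in opposite directions. Pik3r1, the main regulatory subunit, lay at 29.3, 46.8 and 33.9 FPKM in mesenchymal controls and at 21, 20.3 and 24.4 FPKM in non-mesenchymal controls. In mutants it lay at 44.2, 40.1, 49.5 and 41.1 FPKM and at 17.8, 17.1, 22.6 and 19.8 FPKM. The fractions did not overlap in either genotype. Its log2 fold change in mutants was 1.14 (SE 0.14), with a limma adjusted p of 5.78e-04 and an exact permutation p of 0.0286, and the call held with each library left out in turn. In controls it was 0.70 (SE 0.22), past an unadjusted p of 0.05 but not the threshold (limma adjusted p 0.0735). Pik3r2 and Pik3r3, the other regulatory subunits in the set, averaged 4.47 and 3.905 FPKM in mesenchymal controls and passed in neither genotype.

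Pik3cb, the catalytic subunit that also answers G protein-coupled receptors, was on the other side. It lay at 1.72, 0.332, 1.15 and 1.19 FPKM in mesenchymal and 4.16, 4.58, 4.73 and 9.42 FPKM in non-mesenchymal mutants, groups that did not overlap, with a log2 fold change of -1.66 (SE 0.32), a limma adjusted p of 0.00549 and an exact permutation p of 0.0286. In controls its mesenchymal libraries at 1.89, 1.04 and 5.81 FPKM overlapped non-mesenchymal ones at 2.92, 7.604 and 5.91 FPKM, since mesenchymal library 3 was high, and the estimate was -0.85 (SE 0.54). Pik3cd, the subunit best known from leukocytes, averaged 2.12 ± 0.806 FPKM in mesenchymal and 4.64 ± 0.489 FPKM in non-mesenchymal controls (SD, n = 3), a log2 fold change of -0.89 (SE 0.28) with a limma adjusted p of 0.0715. The summed level of 8 leukocyte markers was 7.95 to 12.7 FPKM in the same mesenchymal libraries and 452 to 640.5 FPKM in the non-mesenchymal ones, where none of the 8 was at 0 throughout; Fcer1g was at 0 in all mesenchymal controls. In mutants the leukocyte sum was 8.89 to 12.6 and 292 to 594 FPKM, with Tyrobp and Cd52 at 0 in all mesenchymal libraries. The part of leukocytes in these values was not tested. Pik3ca, the catalytic subunit on which much growth factor signalling rests, averaged 11.6 ± 0.717 FPKM in mesenchymal and 7.48 ± 1.55 FPKM in non-mesenchymal controls without overlap, and its log2 fold change was 0.58 (SE 0.20) (limma adjusted p 0.0941).

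As a share of the summed FPKM of the 3 catalytic subunits, Pik3ca made up 70.5, 77.2 and 62.9% in mesenchymal controls and 49.9, 43.3 and 35.2% in non-mesenchymal controls. The corresponding shares in mutants were 78.2, 93.8, 90.2 and 75.7% and 44.6, 51.8, 60.6 and 25%. Its share was higher in every mesenchymal library than in any non-mesenchymal one of either genotype. The mean share was higher by 27.4 percentage points in controls (exact permutation p 0.1) and by 38.97 points in mutants (exact permutation p 0.0286, the smallest possible). Over the 50 share comparisons made, the Benjamini-Hochberg adjusted values of these permutation tests were 0.5 and 0.286, so neither passed. Eif4ebp2 held 67.1% ± 5.85 of the Eif4ebp1 and Eif4ebp2 sum in mesenchymal controls and 83.03% ± 1.88 in non-mesenchymal controls (SD, n = 3). In mutants the shares were 76.4% ± 5.65 and 89.9% ± 3.29 (SD, n = 4), and fractions overlapped in neither genotype. The permutation p values were 0.1 and 0.0286, and 0.5 and 0.286 after adjustment. Of the 50 comparisons, 9 had groups that did not overlap. The share of Sos2 in the Sos1 and Sos2 sum was 57.2% ± 2.85 in mesenchymal and 63.9% ± 2.77 in non-mesenchymal controls (SD, n = 3) without overlap (exact permutation p 0.1, adjusted 0.5), and overlapped in mutants. Shares of Akt2 within AKT and of Map2k1 within the MEK pair overlapped between fractions in both genotypes.

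**Figure D3:**
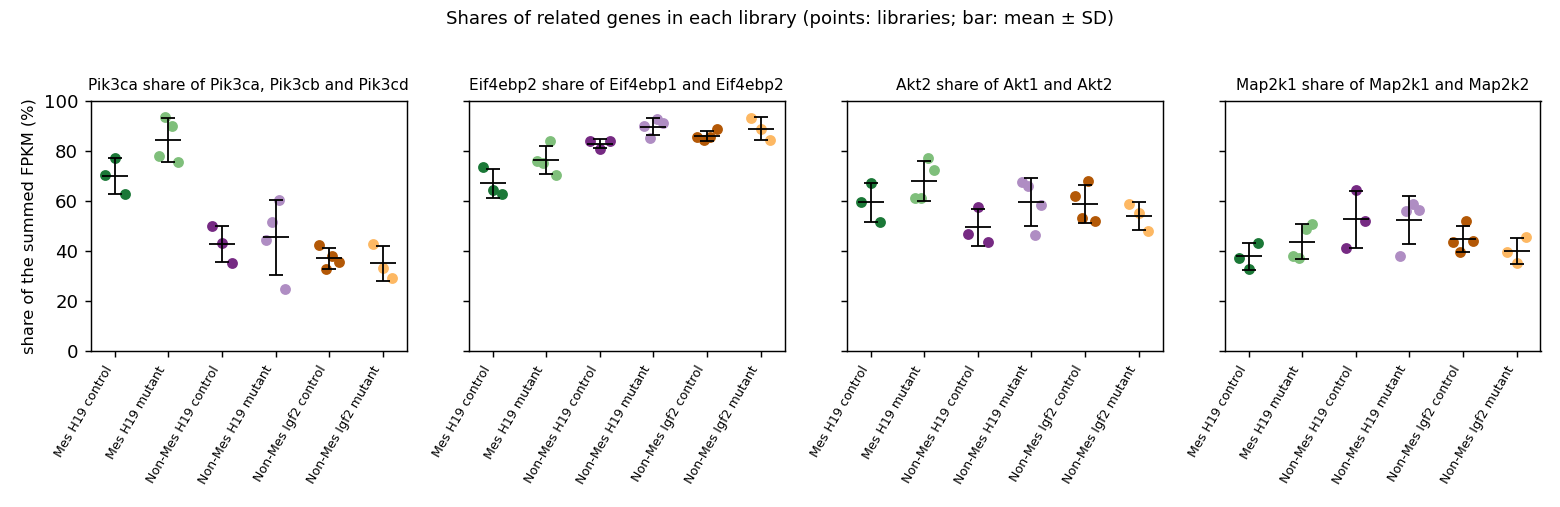
Share of one gene in the summed FPKM of its family, in percent, for each library of the 6 groups; points are libraries, and bars show the mean and SD. Pik3ca takes a larger and Eif4ebp2 a smaller share in mesenchymal libraries of both genotypes, while the Akt2 and Map2k1 shares overlap; the Igf2 model comes from a table normalised separately.

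In the TSC and mTOR branch, Tsc2, which encodes tuberin, the subunit that switches Rheb off, was the other gene called in controls. It lay at 13.8, 10.6 and 12.1 FPKM in mesenchymal and 5.44, 6.74 and 8.13 FPKM in non-mesenchymal controls without overlap. Its log2 fold change was 0.77 (SE 0.21), with a limma adjusted p of 0.0482 and an exact permutation p of 0.1. In mutants, at 10.6, 11.8, 7.19 and 13.8 and 7.696, 10.3, 7.61 and 10.2 FPKM, the fractions overlapped and the log2 fold change was 0.23 (SE 0.22) (limma adjusted p 0.471). The call in controls was lost under 10 of the 15 alternatives, among them each single library left out (log2 fold change 0.64 to 0.89). Exons of Tsc2 overlap those of Pkd1 on the opposite strand, and the sources used here do not say whether counting used strand, so its level is uncertain.

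Rptor, the scaffold that presents substrates to mTORC1, lay at 13.1, 20.3, 21.4 and 17.7 FPKM in mesenchymal and 12.7, 10.9, 11.03 and 8.98 FPKM in non-mesenchymal mutants, with a log2 fold change of 0.67 (SE 0.19), a limma adjusted p of 0.0327 and an exact permutation p of 0.0286. In controls, at 22.2, 18.2 and 12.8 and 12.9, 18.3 and 19.9 FPKM, the fractions were interleaved. The mutant call was lost under 8 of 17 alternatives, among them without any one of 6 of the 8 libraries (all but the replicate 1 library of each fraction), at 0.59 to 0.68. Mtor itself, Rictor, Mlst8, Tsc1 and Rheb passed in neither genotype. Rictor, the scaffold of mTORC2, was among the most even genes of the set, at 8.97 ± 0.904 FPKM in mesenchymal and 9.29 ± 0.789 FPKM in non-mesenchymal controls, with a 95% interval of the log2 fold change from -0.47 to 0.38.

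Of the mTORC1 substrates, the eIF4E-binding proteins, which block cap-dependent translation until mTORC1 phosphorylates them, went in opposite directions in mutants. Eif4ebp1 lay at 13.3, 13.2, 7.73 and 16.2 FPKM in mesenchymal and 5.88, 8.42, 4.09 and 5.54 FPKM in non-mesenchymal libraries, overlapping in mesenchymal library 3, with a log2 fold change of 0.95 (SE 0.27), a limma adjusted p of 0.031 and an exact permutation p of 0.0571. Eif4ebp2 lay at 42.02, 40.01, 40.8 and 38.5 FPKM and 53.2, 48.6, 53.2 and 58.1 FPKM without overlap, with a log2 fold change of -0.39 (SE 0.12), a limma adjusted p of 0.0386 and an exact permutation p of 0.0286. The Eif4ebp2 call was lost under 14 of the 17 alternatives, among them each single library left out (log2 fold change -0.43 to -0.35), protein-coding genes only and median-ratio scaling. Nor did the Eif4ebp1 call survive the loss of any library but mesenchymal library 3 or non-mesenchymal library 2 (0.81 to 0.96 where lost). In controls the log2 fold changes were 0.75 (SE 0.33) for Eif4ebp1 and -0.42 (SE 0.39) for Eif4ebp2, neither past the threshold. The S6 kinases Rps6kb1 and Rps6kb2 and all 5 AKT substrates, Foxo1, Foxo3, Foxo4, Gsk3a and Gsk3b, passed in neither genotype. Foxo1 at 14.7, 14.2 and 14.5 FPKM in mesenchymal controls did lie below its non-mesenchymal values of 18.2, 20.1 and 22.6 FPKM, with a limma adjusted p of 0.0967. In mutants the fractions overlapped, at 13.1 to 16.2 and 9.89 to 16.3 FPKM, and the mesenchymal mean was the higher (14.3 and 13.5 FPKM).

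On the way to RAS, the adaptors Shc1 and Grb2, which bind each other at activated receptors, differed between fractions in opposite directions. Shc1 lay at 35.3, 35.1 and 35.7 FPKM in mesenchymal and 13.5, 22.8 and 25.4 FPKM in non-mesenchymal controls. In mutants it lay at 31.97, 38.95, 25.5 and 38.05 FPKM and 24.5, 23.6, 18.2 and 16.7 FPKM. The fractions did not overlap in either genotype. The log2 fold change of Shc1 was 0.80 (SE 0.26) in controls (limma adjusted p 0.0795) and 0.67 (SE 0.20) in mutants, with a limma adjusted p of 0.0359 and an exact permutation p of 0.0286 in mutants. That call was lost under 7 of 17 alternatives, among them without mesenchymal library 1, 2 or 4 or non-mesenchymal library 2, 3 or 4, at 0.58 to 0.74. Grb2 lay at 3.72, 6.22 and 4.63 FPKM in mesenchymal and 8.38, 9.64 and 15.4 FPKM in non-mesenchymal controls without overlap, a log2 fold change of -1.03 (SE 0.29) that just missed the threshold (limma adjusted p 0.0541). In mutants it lay at 8.28, 2.66, 6.11 and 2.18 FPKM and 8.04, 16.8, 12.7 and 9.81 FPKM, overlapping because mesenchymal library 1 was high, with a log2 fold change of -1.24 (SE 0.39), a limma adjusted p of 0.0462 and an exact permutation p of 0.0571. It missed the threshold under 11 of 17 alternatives: without any 1 library other than mesenchymal library 1, at -1.39 to -0.997, and among others without a filter (limma adjusted p 0.0624), with median-ratio scaling (0.0523) and without the variance trend (0.0506). The exchange factors Sos1 and Sos2 and the phosphatase SHP2 (Ptpn11) passed in neither genotype.

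At the end of the RAS route, Mapk3 lay at 101, 137, 62.96 and 75.4 FPKM in mesenchymal and 179.6, 224, 198 and 226 FPKM in non-mesenchymal mutants. The groups did not overlap, and the log2 fold change was -1.19 (SE 0.24), with a limma adjusted p of 0.00745 and an exact permutation p of 0.0286. Controls gave -0.64 (SE 0.38) on that scale, and the groups overlapped because non-mesenchymal library 1, at 74.7 FPKM, was low. Dusp6, the ERK phosphatase that ERK signalling itself induces, lay at 6.23, 5.98 and 2.72 FPKM in mesenchymal and 6.94, 13.7 and 10.6 FPKM in non-mesenchymal controls. In mutants it lay at 6.89, 5.41, 5.69 and 3.42 FPKM and 14.7, 17.6, 12.6 and 17.9 FPKM. Every mesenchymal library was below every non-mesenchymal one. The log2 fold change of Dusp6 was -0.95 (SE 0.37) in controls (limma adjusted p 0.128) and -1.41 (SE 0.22) in mutants, with a limma adjusted p of 0.00177 and an exact permutation p of 0.0286 in mutants. The mutant calls of Pik3cb, Pik3r1, Mapk3 and Dusp6 held in all alternatives in which each gene was tested. Hras, Nras, Braf, Map2k1 and Map2k2, the steps between, passed in neither genotype. Nras, for example, averaged 60.8 ± 2.78 FPKM in mesenchymal and 61.6 ± 14.3 FPKM in non-mesenchymal controls.

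Without a threshold, 16 of the 37 genes had control groups that did not overlap between fractions, 9 higher and 7 lower in mesenchymal cells, beside 39.9% of all genes (22.4% higher and 17.4% lower). In mutants 9 did not overlap, beside 31.0%. At an unadjusted p under 0.05 there were 12 of the 37 in controls, beside 34.2% of all genes. Of the 37, 25 had the same sign of difference in controls and mutants, beside 77.8% of the 15715 genes tested in both; the 10 called in mutants were among the 25. Whether the fraction difference changed with genotype was tested by the interaction of fraction and genotype, which called 0 of the 37, beside 0.0117% of all genes, with 1 at an unadjusted p under 0.05. Fitting fraction and genotype to all 14 libraries, a step added after the data were seen, called 13 of the 37, beside 39.7% of all genes (20.3% higher and 19.4% lower): Pik3ca, Pik3r1, Pik3r2, Akt1, Akt2, Tsc2, Eif4ebp1 and Shc1 higher in mesenchymal cells, and Pik3cb, Pik3cd, Grb2, Mapk3 and Dusp6 lower. Of these, Pik3ca (0.54 (SE 0.12)), Pik3r1 (0.95 (SE 0.13)), Akt2 (1.14 (SE 0.21)) and Shc1 (0.73 (SE 0.15)) were higher and Dusp6 (-1.21 (SE 0.21)) lower in all 7 mesenchymal libraries than in any of the 7 non-mesenchymal ones, in log2 units with the limma SE; 20.7% of all genes were separated in this way. With 1 library left out in turn, 11 to 15 genes passed, and 11 of the 13 passed each time; Pik3r2 passed in 8 and Tsc2 in 5 of the 14. In controls the calls depended on scaling. With libraries scaled by median ratios, 5 of the 37 passed, 2 higher and 3 lower. Over all genes 1894 were then called higher and 2035 lower, against 2067 and 1718 without that scaling. The median of all genes moved from 0.08 to -0.03.

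Akt2 and Pik3r1, higher in all 7 mesenchymal libraries, and Dusp6, lower in all of them, are the members for which the sequence before the start is shown. Akt2 spans chr7:27591552-27640826, plus strand, Pik3r1 chr13:101680563-101768217, minus strand and Dusp6 chr10:99263231-99267489, plus strand of GRCm38, and all 3 are protein-coding. The 250 bases before the first base of the gene are printed from the RefSeq promoter table (GRCm38.p6), 5′ to 3′ on the gene's strand, with each GC box (GGGCGG on either strand, the core of the binding site of SP1-type factors) in capitals.
Akt2 (chr7:27591302-27591551, plus strand): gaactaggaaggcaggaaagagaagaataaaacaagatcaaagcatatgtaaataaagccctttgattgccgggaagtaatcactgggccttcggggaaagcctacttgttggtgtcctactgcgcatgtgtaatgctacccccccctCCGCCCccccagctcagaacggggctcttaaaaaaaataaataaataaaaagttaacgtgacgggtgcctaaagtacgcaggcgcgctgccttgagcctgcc
Pik3r1 (chr13:101768218-101768467, minus strand): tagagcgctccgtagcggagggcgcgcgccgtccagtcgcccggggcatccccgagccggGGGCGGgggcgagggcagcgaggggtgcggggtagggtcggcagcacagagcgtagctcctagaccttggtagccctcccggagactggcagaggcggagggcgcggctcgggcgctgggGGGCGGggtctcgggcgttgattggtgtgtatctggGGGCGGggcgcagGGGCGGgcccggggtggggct
Dusp6 (chr10:99262981-99263230, plus strand): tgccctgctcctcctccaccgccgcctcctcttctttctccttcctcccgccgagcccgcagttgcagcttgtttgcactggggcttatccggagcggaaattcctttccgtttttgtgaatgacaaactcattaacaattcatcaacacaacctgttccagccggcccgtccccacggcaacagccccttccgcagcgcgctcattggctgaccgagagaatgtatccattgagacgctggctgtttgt
The printed Pik3r1 window holds 4 GC boxes and 30 CpG dinucleotides at 76.4% GC. The printed Akt2 window holds 1 GC box and 10 CpG at 48.8% GC. The Dusp6 window holds none of the motifs searched and 16 CpG at 56.4% GC. Another Pik3r1 window, with 6 CpG at 42.4% GC, held none of the motifs. Nor did the further Akt2 windows, with 0 to 5 CpG. Which start these cells use was not tested. 33 of the 37 members had an entry, with 45 windows in all, since a gene can have several starts. Over these 45, GGGCGG was present in 60%, against 32.7% of the 32851 windows in the table, at a median GC content of 58.8% against 52.4%. The ETS site CCGGAAG was present in 13.3% of member windows and 6.91% of all, the FOXO site GTAAACA in 4.44% and 3.17%, and the cyclic AMP response element TGACGTCA in 4.44% and 1.55%, each searched on both strands. ETS matches were in windows of Eif4ebp2, Mtor, Pik3ca, Pik3r2, Ptpn11 and Tsc2. These are matches of letters, not measured sites.

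Genes that feed into or answer the relay were described in the same way. Of 78 further genes in 8 lists, 76 were tested in controls and 18 passed (23.7%), 6 higher and 12 lower in mesenchymal cells, close to the 22.6% of all genes given above. In mutants 77 were tested and 29 passed (37.7%), 10 higher and 19 lower, beside 28.6%. The lists were chosen with earlier results of these data known. Among docking proteins, 3 of 5 tested were higher in mesenchymal cells of both genotypes, beside 12.4% of all genes in controls and 13.5% in mutants. Irs1, a docking protein of insulin and IGF receptors, lay at 11.96, 12.2 and 10.5 FPKM in mesenchymal and 1.17, 0.9404 and 0.817 FPKM in non-mesenchymal controls, and its log2 fold change was 2.67 (SE 0.19) (limma adjusted p 4.29e-04). Gab2 and Gab1, which dock PI3K and SHP2, had log2 fold changes of 1.17 (SE 0.20) and 0.95 (SE 0.17) in controls. Of 12 feedback and target genes of ERK, 2 passed in controls, in opposite directions, beside 22.6% of all genes. The feedback inhibitor Spry4 averaged 19.1 ± 6.54 FPKM in mesenchymal and 2.07 ± 0.235 FPKM in non-mesenchymal controls (SD, n = 3), with a log2 fold change of 2.65 (SE 0.30). The nuclear ERK phosphatase Dusp5 averaged 3.52 ± 0.881 and 17.03 ± 5.104 FPKM, with a log2 fold change of -1.98 (SE 0.27). In mutants 7 passed, 3 higher and 4 lower, beside 28.6% of all genes (13.5% higher and 15.1% lower); Ier3 and Etv4 were among those lower, at -1.96 (SE 0.21) and -1.85 (SE 0.33).

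Of 8 FOXO target genes tested in controls, 5 were called lower in mesenchymal cells and none higher, beside 10.3% of all genes lower. Those with the largest differences were Trib1, a pseudokinase (-2.22 (SE 0.27)), Pdk4, which restrains pyruvate oxidation (-1.88 (SE 0.38)), the repressor Bcl6 (-1.50 (SE 0.20)) and the cell cycle inhibitor Cdkn1b (-0.89 (SE 0.22)). In mutants 4 of 9 were lower, beside 15.1% of all genes, with Cdkn1b at -0.14 (SE 0.22) not among them. Foxo1, Foxo3 and Foxo4 themselves passed in neither genotype. Of 20 regulators of mTORC1 and amino acid sensing, 5 passed in controls, beside 22.6% of all genes. Rragb, a Rag GTPase (-2.25 (SE 0.26)), the mTOR inhibitor Deptor (-2.01 (SE 0.19)) and the leucine sensor Sesn2 (-1.36 (SE 0.36)) were lower in mesenchymal cells, and the arginine sensor Castor1 (1.59 (SE 0.31)) was higher, from a low level of 2.76 against 0.246 FPKM. Inpp5d, a PI3K-opposing phosphatase found mainly in blood cells, was the only 1 of 8 phosphoinositide phosphatases past the threshold in controls, beside 22.6% of all genes, at 0.501 ± 0.266 FPKM in mesenchymal and 13.1 ± 3.28 FPKM in non-mesenchymal libraries (log2 fold change -3.22 (SE 0.27)). It moved with the 8 leukocyte markers given above, all of which were lower in mesenchymal cells, and their part in its difference was not tested. The RAS GTPase-activating protein genes and RAS relatives, 10 in all, gave no call in controls, beside 22.6% of all genes. They had 1 unadjusted p under 0.05, beside 34.2% of all genes. In mutants 3 were higher in mesenchymal cells, beside 13.5% of all genes: Rasa3 (1.00 (SE 0.28)), Rras (0.93 (SE 0.23)) and Nf1 (0.85 (SE 0.26)).

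The next question was whether the mutations altered transcript levels of the relay. Its activity was not measured, so the counts below do not say whether signalling changed. In mesenchymal cells of the H19DMD model, where Igf2 was higher in every mutant library than in any control library, limma called 0 of the 37 genes, beside 0.0694% of all genes. At an unadjusted p under 0.05 there was 1, Foxo3, beside 4.76% of all genes, and no gene had groups that did not overlap, beside 5.39% of all genes. Foxo3, a FOXO factor that AKT keeps out of the nucleus, lay at 11.1, 14.2 and 11.5 FPKM in controls and 23.3, 24.4, 13.8 and 16.9 FPKM in mutants. Mutant libraries 1 and 2 were high and library 3 lay within the control range. The log2 fold change was 0.61 (SE 0.24), with a limma adjusted p of 0.927. Akt2 lay at 40.2, 46.4 and 31.2 FPKM in controls and 42.1, 42.8, 51.8 and 60.9 FPKM in mutants, a log2 fold change of 0.33 (SE 0.21). Mtor lay at 13.3, 18.1 and 10.6 FPKM and 14.97, 10.2, 7.36 and 9.07 FPKM, a log2 fold change of -0.41 (SE 0.28). Neither passed, and both overlapped. The log2 fold changes of all 37 ran from -0.75 (Pik3cb) to 0.61, with a median of -0.06, beside -0.07 over all genes. Markers of other cells and of division moved in the same libraries. The sum of 9 ductal markers was 45.8 to 95.5 FPKM in controls and 18.5 to 44.6 FPKM in mutants without overlap. Each of the 9 overlapped on its own. Krt19 lay at 20.5 to 67.1 and 4.75 to 24.6 FPKM. Epcam, Cdh1, Sox9 and Cftr were at most 2.13 FPKM in either group. The sums of 4 mesothelial markers (120.2 to 264 and 83.4 to 131 FPKM) and of 5 cell cycle genes (148 to 167 and 94.1 to 155 FPKM) overlapped. Lower in every mutant library were 2 of the 4 mesothelial markers, Lrrn4 at 19.2 to 44.6 against 3.45 to 15.5 FPKM among them, and 2 of the 5 cell cycle genes, Top2a at 62.4 to 64.5 against 40.1 to 58.6 FPKM and Birc5 at 17.3 to 22.9 against 5.04 to 15.5 FPKM. None of these markers was at 0 in every library of a group, none of those tested passed the threshold in limma, and their part in the member values was not tested. Shares within families were separated for 2 of 10. Foxo1 held 50.5% ± 2.55 of the FOXO sum in controls (SD, n = 3) and 40.4% ± 3.51 in mutants (SD, n = 4), and Sos2 57.2% ± 2.85 and 64.8% ± 1.48 of the SOS sum. Both had an exact permutation p of 0.0286, the smallest possible, and 0.286 after adjustment over the 50 comparisons, so neither passed. Precision varied: the 95% interval ran from -0.37 to 0.34 for Pdpk1 and from -1.92 to 0.41 for Pik3cb.

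In non-mesenchymal cells of the same mice limma again called 0 of the 37, beside 0.0677% of all genes, with 3 at an unadjusted p under 0.05 (Rps6kb1, Rptor and Foxo1), beside 5.35% of all genes. The control and mutant groups did not overlap for 6 of the 37, beside 5.68% of all genes: Mlst8, Gsk3b and Mapk3 had higher values in mutants, and Rptor, Rps6kb1 and Foxo1 lower ones. Rps6kb1, the S6 kinase through which mTORC1 drives protein synthesis, lay at 96.9, 67.1 and 74.3 FPKM in controls and 30.5, 54.4, 62.2 and 36.4 FPKM in mutants. The log2 fold change was -0.82 (SE 0.28), with a limma adjusted p of 0.892 and an exact permutation p of 0.0571. Its exons overlap those of Rnft1 on the opposite strand, and its level is uncertain for the reason given for Tsc2. Rptor lay at 12.9, 18.3 and 19.9 FPKM in controls and 12.7, 10.9, 11.03 and 8.98 FPKM in mutants. Its lowest control value stood just above the highest mutant one, and the log2 fold change was -0.58 (SE 0.20), with a limma adjusted p of 0.892 and an exact permutation p of 0.0286. A non-coding gene, Rptoros, overlaps it on the opposite strand. Foxo1 lay at 18.2, 20.1 and 22.6 FPKM in controls and 16.3, 13, 14.8 and 9.89 FPKM in mutants, a log2 fold change of -0.57 (SE 0.20) with a limma adjusted p of 0.892 and an exact permutation p of 0.0571. Mapk3 lay at 74.7, 172 and 173 FPKM and 179.6, 224, 198 and 226 FPKM, 0.65 (SE 0.31), with a limma adjusted p of 0.894 and an exact permutation p of 0.0286. Without control library 1, whose value of 74.7 FPKM was low, the Mapk3 log2 fold change was 0.26.

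Dusp6 and Akt2 had large differences in this comparison without separated groups. Dusp6 averaged 10.4 ± 3.38 FPKM in controls and 15.7 ± 2.51 FPKM in mutants, a log2 fold change of 0.58 (SE 0.25) (limma adjusted p 0.894). Akt2 averaged 15.1 ± 5.23 and 25.4 ± 7.91 FPKM, a log2 fold change of 0.71 (SE 0.35) (limma adjusted p 0.894). All 12 other feedback and target genes of ERK had log2 fold changes above 0 here, with a median of 0.21 beside 0.05 over all genes. Of the 75 further pathway genes tested, these 12 included, 49 were above 0 and 26 below. None of the 12 was called and none had an unadjusted p under 0.05. Of the family shares 2 of 10 were separated. Pik3r1 held 79.8% ± 1.14 of the regulatory subunit sum in controls and 74.9% ± 2.196 in mutants (exact permutation p 0.0286, adjusted 0.286), and Eif4ebp2 83.03% ± 1.88 and 89.9% ± 3.29 of the 4E-BP sum (exact permutation p 0.0571, adjusted 0.408; SD, n = 3 and 4). Neither passed. Some single cell-type markers were separated in the same libraries. The summed level of 10 endocrine markers was 19937 to 30004 FPKM in controls and 11279 to 20542 FPKM in mutants, that of 6 erythroid markers 123 to 437 and 152 to 1706 FPKM, and that of 8 leukocyte markers 452 to 640.5 and 292 to 594 FPKM. That of 9 ductal markers was 1129.5 to 1770.4 and 1305 to 2305 FPKM, with all 9 log2 fold changes positive. All 4 sums overlapped. Of their markers 3 were separated, beside 5.68% of all genes. Ins1 lay at 5231 to 7424 FPKM in controls and 2331 to 4732 FPKM in mutants, and Gcg at 6206 to 8888 and 2577 to 6112 FPKM. The ductal keratin Krt19 lay at 29.8 to 50.6 and 51.6 to 73.7 FPKM. The other endocrine markers overlapped. Among them were Ins2 at 6416 to 10819 and 3738 to 6991 FPKM and Sst at 810 to 1874 and 1307 to 1534 FPKM. None of these markers was at 0 in every library of a group, none passed the threshold in limma, and their part in the member differences was not tested. The interaction of mutation and fraction, which asks whether the H19DMD effect differs between mesenchymal and other cells, had 1 unadjusted p under 0.05 among the 37, beside 6.35% of all genes: Foxo1 at 0.55 (SE 0.23) with a limma adjusted p of 0.755. The median over the members was -0.14, beside -0.11 over all genes; under median-ratio scaling they were -0.012 and -0.0048.

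**Figure D4:**
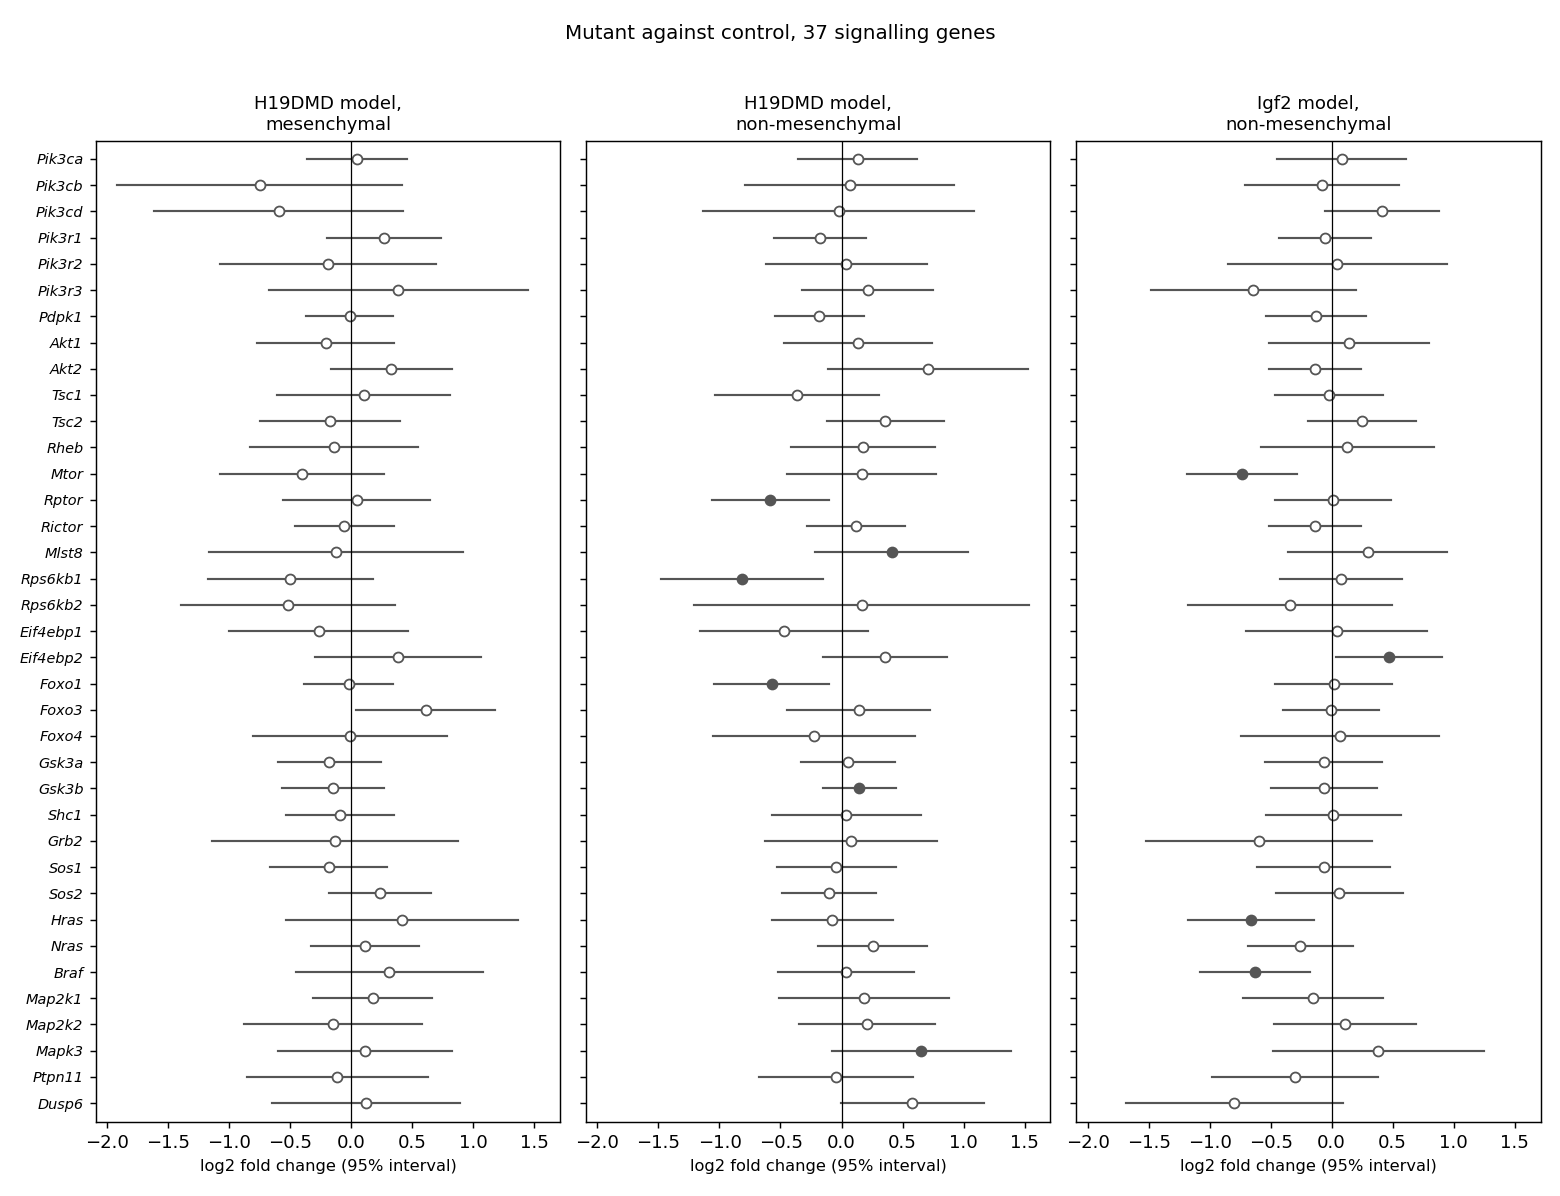
Log2 fold change of each of the 37 genes, mutant against control, in mesenchymal and non-mesenchymal cells of the H19DMD model and in non-mesenchymal cells of the Igf2 model. Points are limma estimates on log2(FPKM + 1), lines their 95% intervals, and filled points mark groups that do not overlap, 0, 6 and 4 in the 3 panels; no gene passed an adjusted p of 0.05.

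In non-mesenchymal cells of the Igf2 model, whose mutants are meant to lack Igf2 in the mesenchyme only, limma called 0 of the 37 genes, beside 0.0631% of all genes, with 4 at an unadjusted p under 0.05, beside 5.28%. The same 4 were those whose groups did not overlap, beside 6.02% of all genes: Mtor, Hras and Braf had lower values in mutants and Eif4ebp2 higher ones. Mtor, the kinase of both mTOR complexes, lay at 15.7, 17.1, 24.3 and 20.3 FPKM in the 4 controls and 11.05, 10.6 and 11.6 FPKM in the 3 mutants. The mutants were close together, below every control. The log2 fold change was -0.73 (SE 0.19), with a limma adjusted p of 0.919 and an exact permutation p of 0.0286, the smallest that 4 against 3 allows. Hras, one of the RAS GTPases, lay at 37.6, 31.4, 23.2 and 25.5 FPKM in controls and 17.3, 15.3 and 21.6 FPKM in mutants, a log2 fold change of -0.66 (SE 0.22) with a limma adjusted p of 0.919 and an exact permutation p of 0.0571. Braf, the RAF kinase downstream, lay at 51.8, 52.5, 43.7 and 51.3 FPKM in controls and 36.7, 36.4 and 24.02 FPKM in mutants, -0.63 (SE 0.19) with a limma adjusted p of 0.919 and an exact permutation p of 0.0286. Exons of Braf overlap those of Ndufb2 on the opposite strand, which makes its level uncertain. Eif4ebp2 lay at 55.3, 75.3, 54.5 and 75.3 FPKM in controls and 98.97, 78.8 and 91.7 FPKM in mutants, a log2 fold change of 0.47 (SE 0.19) with a limma adjusted p of 0.919 and an exact permutation p of 0.0857. Its highest control and lowest mutant values stood close together.

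Dusp6 had the largest log2 fold change of the set in this comparison, -0.80 (SE 0.38), at 15.2, 22.3, 40.1 and 36.4 FPKM in controls and 11.1, 14.2 and 20.7 FPKM in mutants, but its groups overlapped and the limma adjusted p was 0.919. The other feedback and target genes of ERK gave no call: 2 of the 12 had log2 fold changes above 0 and 10 below, with a median of -0.34, and 1 had an unadjusted p under 0.05. Of the 77 further pathway genes tested, these 12 included, 28 were above 0 and 49 below. No family share was separated. The members' median was -0.02, beside -0.03 over all genes. The 95% interval of the log2 fold change ran from -0.43 to 0.32 for Pik3r1 and from -1.52 to 0.33 for Grb2. Acinar cell markers moved with the groups. The sum of 10 markers was 29591 to 42729 FPKM in the 4 control libraries, where Amy2a5 was at 0, and 86807 to 99106 FPKM in the 3 mutant libraries, without overlap; 9 markers were tested, all 9 had positive log2 fold changes and 8 an unadjusted p under 0.05, while none passed the threshold. The sum of 9 ductal markers went the other way, at 1648 to 1928 FPKM in controls and 1251 to 1548 FPKM in mutants, without overlap, and all 9 had negative log2 fold changes. Sums of 8 leukocyte markers, 536 to 763 and 753 to 1405 FPKM, overlapped narrowly, with all 8 log2 fold changes positive, and sums of 10 endocrine markers, 6445 to 12842 and 9810.3 to 20497 FPKM, overlapped too; no marker of these 3 lists was at 0 in every library of a group. The part of acinar, ductal and leukocyte content in the values of Mtor, Hras, Braf and Eif4ebp2 was not tested. Of the 78 other pathway genes none was called in any mutant comparison or the interaction; unadjusted p values under 0.05 numbered 2 of 72 tested in mesenchymal H19DMD cells, beside 4.76% of all genes, 2 of 75 in non-mesenchymal H19DMD cells, beside 5.35%, and 5 of 77 in the Igf2 model, beside 5.28%, shares near those of all genes.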

How the data were processed

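Expression was measured in 21 libraries of sorted pancreatic cells: 14 of the H19DMD model and 7 of the Igf2 model, 31 samples being in the series. The authors deposited FPKM values per gene in 1 table for each model, and the submitters' processing notes name TopHat2 2.0.8, Cufflinks 2.2.1 and GRCm38. Annotation, filters and use of strand are not given in the sources used here. 8 columns without values and the libraries without a column were not analysed here.

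Members and lists were chosen with earlier results of these data known. From the deposited FPKM, log2(FPKM + 1) was computed, genes averaging under 1 FPKM in the libraries of a comparison were dropped, and limma 3.58.1 (R 4.3.3; lmFit, eBayes with a variance trend) was fitted to the groups of each comparison, with Benjamini-Hochberg adjustment over all genes at 0.05. The interaction was fitted to all 14 libraries of the H19DMD model. The fits were tested on simulated data, which checks the code and not whether the model suits these FPKM values. Single values were also compared by two-sided exact permutation of the difference in means. Full statistics are given for members past the threshold (at most 10 per fraction comparison) or, in mutant comparisons without any, for up to 4 members with the largest change among those whose groups do not overlap, and for up to 4 called genes of each other list. Foxo3, Akt2, Mtor and Dusp6 in mutant comparisons, several members that missed the threshold between fractions, and the family shares given were named after their values were seen. Gene positions come from GENCODE M21 (GRCm38). Alternatives changed the pseudocount, filter, scaling, gene set, block, variance trend and libraries. FPKM values carry no read counts, so precision is read from the spread between libraries.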

Additional observations from a re-analysis of the deposited data

Results flagged for a closer look

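In 7 of 111 combinations of gene and group with 4 libraries, 1 library stood far from the other 3, by the gap to the nearest as a part of the range; chance gives about 1 in 20, or 5.5. In non-mesenchymal H19DMD mutants, library 4 was high for Pik3cb at 9.416 FPKM (others 4.161 to 4.734) and for Mtor at 15.09 FPKM (others 9.797 to 10.61). In non-mesenchymal Igf2-model controls, library 2 was high for Eif4ebp1 at 13.74 FPKM (others 9.073 to 9.286), and library 3 was low for Foxo3 at 19.27 FPKM (others 23.54 to 24.19) and for Braf at 43.74 FPKM (others 51.35 to 52.52). In mesenchymal H19DMD mutants, library 3 was low for Map2k1 at 10.9 FPKM (others 13.93 to 14.31) and library 4 high for Ptpn11 at 32.34 FPKM (others 14.05 to 16.66).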

How the results depend on the processing

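None of the 20 log2 fold changes of single genes changed sign under an alternative. These genes were picked from the same data, as past the threshold or as large changes with separated groups. A stable sign was therefore likely from the start and says little about robustness. The members' median log2 fold change, close to 0 throughout, changed sign in 4 of 6 comparisons: it ran from -0.084 to 0.014 in mesenchymal and -0.046 to 0.15 in non-mesenchymal H19DMD cells, -0.078 to 0.017 in the Igf2 model and -0.10 to 0.070 between fractions in controls. Of the 50 differences in family share, 16 changed sign with 1 library left out, none of them with an exact p under 0.05 to begin with. Shares with such a p had separated groups, so leaving out 1 library could not change their sign. No member was called in a mutant comparison or the interaction under any alternative.

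Members called between fractions in controls (2) numbered 1 with a pseudocount of 0.1, 1 without a filter, 1 without the variance trend, 5 with median-ratio scaling, 7 among protein-coding genes only, 7 in a fit of all 14 libraries, 13 with both genotypes together (added after the data were seen) and 0 to 2 with 1 library left out. In mutants (10) they numbered 4 to 8 with 1 library left out. Genes called over the whole table between fractions (3785 in controls, 4802 in mutants) numbered 2448 and 3148 at a mean of at least 5 FPKM, 6792 with both genotypes together, and 2813 to 3256 and 3892 to 4638 with 1 library left out. In mutant comparisons (11 each: mesenchymal H19DMD, non-mesenchymal H19DMD, non-mesenchymal Igf2) they numbered 0, 1 and 0 among protein-coding genes, and 13 to 27, 14 to 34 and 14 to 37 with 1 library left out; the fit of all 14 libraries gave 5 and 1 in the H19DMD model. The interaction (2) gave 6 with a pseudocount of 0.1, 6 without a filter, 0 among protein-coding genes and 2 to 9 with 1 library left out. The cause of these shifts was not tested. Groups left with fewer libraries separate more easily: members whose groups do not overlap numbered 0 to 7 in mesenchymal H19DMD cells, 6 to 10 in non-mesenchymal H19DMD cells and 4 to 10 in the Igf2 model.

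With replicate number as a block, members called between fractions numbered 1 in controls (Tsc2 was lost) and 6 in mutants, where Akt2 (adjusted p 0.0528 in limma), Rptor (0.0805), Eif4ebp2 (0.0927), Shc1 (0.0563) and Grb2 (0.0954) were lost and Pik3cd was gained, and all genes called in the 3 mutant comparisons numbered 7, 5 and 2. The labels do not say that a number marks a shared animal, and no correlation of deviations reached 0.1. Between fractions all 7 same-numbered pairs were above 0 (0.0076 to 0.0679), against 6 of 18 other pairs (-0.0519 to 0.0319), and 9 of 14 libraries correlated best with their own number, a hint of pairing from the data and not the design; between mutants and controls the 9 same-numbered pairs lay at -0.0506 to 0.0308. Depth is unknown, so low-level genes such as Pik3cb, Pik3cd, Mlst8 and Foxo4 are limited by a precision that only the spread between libraries shows.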
